A study of Mus musculus with 9 samples.

Results

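In all, 10 genes of the G1 phase of the cell cycle were followed across sorted mouse thymocytes with and without Brd1: the D-type cyclins Ccnd1, Ccnd2 and Ccnd3, their kinase partners Cdk4 and Cdk6, the kinase inhibitors Cdkn2c, Cdkn2d, Cdkn1a and Cdkn1b, and the retinoblastoma gene Rb1. They were chosen by name and not by a cut on their values, with earlier results of these data known. RefSeq accessions in the scanner files led to 14 probes for these 10 genes, among 55537 probes and 37079 genes or unnamed transcripts in all. The arrays compared thymocytes of C57BL/6 mice that all carried Tie2-Cre, a Cre recombinase driven by a promoter active in endothelial and blood-forming cells. Control mice were Brd1+/+ and conditional knockout (CKO) mice were Brd1flox/flox. At 8 weeks of age, CD4 and CD8 double positive (DP), CD4 single positive (CD4SP) and CD8 single positive (CD8SP) cells were sorted from both genotypes, and, in the CKO alone, CD4SP cells that lacked surface TCRβ. CD8SP cells of both genotypes also came from mice that carried OT-I (written OT-l in the labels), a T cell receptor transgene restricted by MHC class I, at 14 weeks. Each of these 9 groups was measured on 1 array, so a difference between 2 arrays has no replicate behind it, and the labels do not say which groups came from the same mouse.

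Passage through G1 is driven by D-type cyclins, which bind and activate Cdk4 and Cdk6. These kinases phosphorylate the retinoblastoma protein, which otherwise holds the E2F transcription factors of the DNA replication genes in check. INK4 inhibitors, here Cdkn2c and Cdkn2d, bind Cdk4 and Cdk6 themselves, whereas the CIP/KIP inhibitors Cdkn1a and Cdkn1b bind complexes of cyclin and kinase. In the thymus, Ccnd3 is known for the proliferation of cells that have passed the pre-T cell receptor checkpoint, and maturing single positive cells are largely at rest.

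Levels below are log2 signals relative to the 75th percentile of each array. Per array, 39.0% to 45.9% of probes stood well above background, and 7 of the 10 genes were so on all 9 arrays. The exceptions were Ccnd1 (6 arrays), Cdkn1a (4 arrays) and Cdk6 (3 arrays). The sorting markers followed the labels: Cd4 was 6.19 to 6.54 on the DP and CD4SP arrays and 3.14 to 3.50 on the CD8SP arrays, and Cd8a was -2.11 to -0.32 on the CD4SP arrays and 4.60 to 5.46 on all others. Brd1 itself differed on the arrays labelled CKO from the control by 0.46, 0.10, 0.64 and 0.61 in the DP, CD4SP, CD8SP and OT-I pairs, so that no labelled knockout had less of its signal. Where its probe lies relative to the deleted exons is not known here. The arrays lay on 2 slides, with the CD8SP CKO array and the OT-I pair on slide 2, so that the CD8SP pair crossed slides. In a fit with a term for slide, that term is set by this pair alone. The level of CD8SP cells then comes from the CD8SP control array alone.

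Ccnd2 rose in both single positive populations and had the widest range of the 10 genes. Its level, control array first, was 0.0095 and 0.89 in DP, 5.28 and 5.68 in CD4SP, 4.50 and 5.29 in CD8SP and 3.67 and 5.98 in OT-I cells, with -0.63 in TCRβ-negative CKO cells. The 6 arrays of ordinary single positive cells did not overlap with the 3 others. How many of all genes split the arrays in this way was not counted. In a limma fit of population and genotype over the 9 arrays, Ccnd2 was 5.03 higher in CD4SP than in DP cells (SE 0.49, 95% interval 3.83 to 6.23, adjusted p = 0.0141), or 32.7-fold. It was 4.44 higher in CD8SP than in DP cells (SE 0.49, adjusted p = 0.0142). Ccnd2 was the 1 gene of the 10 called in CD4SP cells against DP, where 2.16% of all 20282 genes tested were called higher and 3.09% either way. The CD4SP call was kept in every alternative fit that gives this contrast, with adjusted p of 0.0028 to 0.0305. The CD8SP call was lost with slide as a block (4.65, adjusted p = 0.0945) and kept in the others (adjusted p = 0.0036 to 0.0345).

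Ccnd1 was not well above background in DP cells and rose in CD8SP cells. Its level was -1.33 in CD4SP control and -3.12 in CD4SP CKO cells, 0.91 and 1.40 in CD8SP and -1.32 and -0.66 in OT-I cells. In DP control, DP CKO and TCRβ-negative cells the probe read -4.02, -3.42 and -4.22 and was not well above background. In the same fit, Ccnd1 was 4.87 higher in CD8SP than in DP cells (SE 0.65, adjusted p = 0.0214). With each DP reading raised to the lowest signal well above background on its array, the difference is 23.2-fold. This is not a lower bound, since readings not well above background can lie higher. On the DP CKO array Cdk6 did so, at -2.93 against a lowest such signal of -3.27. Ccnd1 and Ccnd2 were the 2 of 10 genes called in that contrast, both higher, where 2.42% of all genes tested were called higher and 3.46% either way. With slide as a block the Ccnd1 difference was 4.54 and was no longer called (adjusted p = 0.158, against 0.0085 to 0.0416 in the other alternatives). With the normexp background, which was run with an offset of 50 added to the signals, it was 2.31. The 75th percentile of the processed signal was 87.4 to 140 per array. The part of the offset in the smaller value was not tested.

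Transcripts of myeloid and dendritic cells moved with Ccnd1. Of 12 such markers 11 were measured, and 7 to 11 of them were well above background per array. Their summed level was 6.09 and 5.69 on the DP arrays, 6.70 and 6.25 on the CD4SP arrays, 6.87 and 7.47 on the CD8SP arrays, 6.19 and 6.64 on the OT-I arrays and 5.48 in TCRβ-negative cells (log2, control first). Over the 9 arrays, which share slides and possibly mice, this sum had a Pearson r of 0.91 with Ccnd1. Against DP, the CD8SP cells had more H2-Aa, an MHC class II chain (5.01), Mpeg1 (4.92) and the integrin Itgax (4.69), all called. The complement gene C1qa was called lower (-3.18), and 7 of the 11 markers had a fitted difference above 0. Of the markers that macrophages share, Csf1r (4.70 and 4.10) and Itgam (4.89 and 5.58) were well above background on both CD8SP arrays, the complement gene C1qb on the control array alone, and Lyz2, Adgre1 and C1qa on neither. Csf1r and Itgam were well above background on all 9 arrays and differed from DP by 0.35 and 0.03. Markers of NK and NKT cells were also uneven: the summed level of 6 was -1.21 and -1.02 on the DP arrays, 2.97 and -1.29 on the CD4SP arrays, 2.44 and 2.29 on the CD8SP arrays, 0.71 and 1.00 on the OT-I arrays and -1.57 in TCRβ-negative cells, with 1 to 4 of them well above background per array and the NK receptor Ncr1 on none. For gamma delta T cells the summed level of 4 markers was 5.21 and 3.35 on the OT-I arrays and 0.88 to 1.92 on the others. Of these, Cd163l1 was 5.06 and 3.01 on the OT-I arrays and at most -0.62 elsewhere. Sox13 was 1.72 and 1.00 there and up to 1.76 elsewhere, and Il17a was well above background on no array. The part of other cell types in the values of Ccnd1, Ccnd2 and the other genes was not tested. In bulk RNA, fewer cells of a type and less RNA per cell cannot be told apart.

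Ccnd3 was lowest in CD4SP cells and had a narrower range. Its level was 8.51 and 8.47 in DP, 7.12 and 7.05 in CD4SP, 7.85 and 7.64 in CD8SP and 8.39 and 7.46 in OT-I cells, with 8.44 in TCRβ-negative CKO cells. The DP, TCRβ-negative and OT-I control arrays lay within 8.39 to 8.51, and both CD4SP arrays were below all others. Ccnd3 was 1.40 lower in CD4SP than in DP cells, 1.38 in controls and 1.41 in the CKO, but did not pass the test (SE 0.32, adjusted p = 0.0931). It passed in 4 alternative fits: with the normexp background, with quantile normalization, over genes detected on all arrays and with an intensity trend in the variance prior (adjusted p = 0.0386 to 0.0477). The other Ccnd3 probe ran from 7.41 in DP CKO to 5.86 in CD4SP CKO cells. Over the 9 arrays the r between Ccnd2 and Ccnd3 was -0.86, as a description of arrays that differ in population, genotype and slide.

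**Figure D1:**
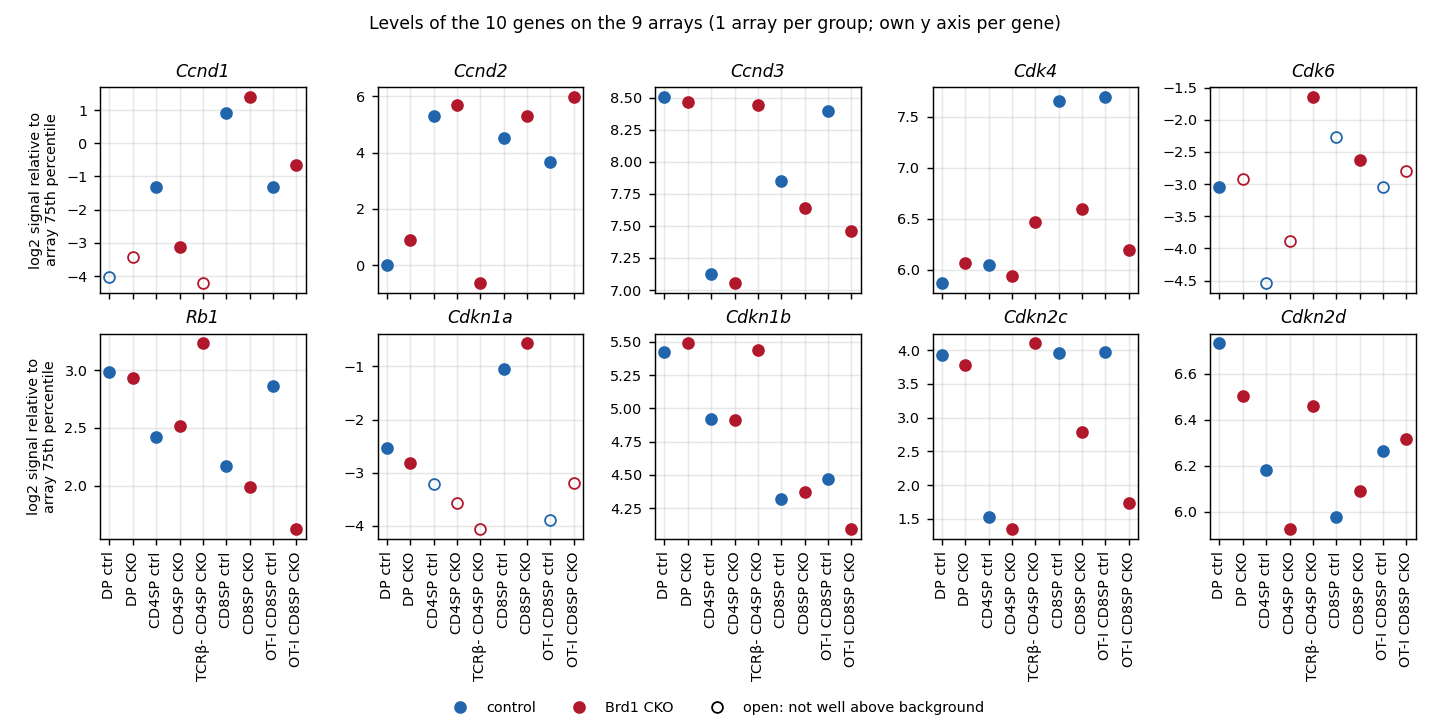
Level of each gene (log2 signal relative to the 75th percentile of the array, own y axis per gene) on the 9 arrays, 1 point per array, controls in blue and Brd1 CKO in red. Open points were not well above background. Ccnd2 is high on all 6 arrays of ordinary single positive cells, and Cdk4 and Cdkn2c are lower in the CKO than in the control of the CD8SP and OT-I pairs.

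Cdk4 was highest in both CD8SP control populations. Its level was 5.87 and 6.07 in DP, 6.05 and 5.94 in CD4SP, 7.66 and 6.59 in CD8SP and 7.70 and 6.19 in OT-I cells, with 6.46 in TCRβ-negative CKO cells. The CD8SP control and OT-I control arrays stood above all others, which lay within 5.87 to 6.59. The other 2 Cdk4 probes had the same arrays on top, at 6.71 and 6.64 for one and 5.65 and 5.47 for the other. The fitted CD8SP difference from DP was 1.16 (SE 0.47, adjusted p = 0.238), the mean of 1.79 in controls and 0.53 in the CKO. Cdk6, the alternative kinase, was well above background in DP control (-3.04), TCRβ-negative (-1.64) and CD8SP CKO cells (-2.63), and its other readings give no levels to compare.

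Cdkn2c, an INK4 inhibitor of Cdk4 and Cdk6, separated the 9 arrays into high and low. Its level was 3.92 and 3.78 in DP, 1.53 and 1.34 in CD4SP, 3.95 and 2.79 in CD8SP and 3.97 and 1.73 in OT-I cells, with 4.11 in TCRβ-negative CKO cells. The DP, TCRβ-negative, CD8SP control and OT-I control arrays lay within 3.78 to 4.11, the CD8SP CKO array between, and the CD4SP and OT-I CKO arrays within 1.34 to 1.73. Cdkn2c was 2.41 lower in CD4SP than in DP cells, 2.39 in controls and 2.43 in the CKO, and did not pass the test (SE 0.56, adjusted p = 0.0913). It passed in 4 alternative fits: with the normexp background, over genes detected on all arrays, with the intensity trend and without the OT-I pair (adjusted p = 0.0258 to 0.0464). The CD8SP difference from DP was -0.48 with a 95% interval of -1.84 to 0.88. Cdkn2d, the other INK4 gene, ranged only from 5.92 in CD4SP CKO to 6.74 in DP control cells.

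The start-site windows of Cdk4 and Cdkn2c are shown because these genes had the lowest CKO minus control values of the 10 in the CD8SP and OT-I pairs. They come from RefSeq on GRCm38.p6 and run from 250 bases before to 50 after an annotated start, written along the gene's strand with each CACGTG, the core E-box of Myc-type factors, in capitals. The Cdk4 window is chr10:127063285-127063584 (plus strand), and the Cdkn2c windows are chr4:109665323-109665622 and chr4:109666707-109667006 (minus strand).
Cdk4: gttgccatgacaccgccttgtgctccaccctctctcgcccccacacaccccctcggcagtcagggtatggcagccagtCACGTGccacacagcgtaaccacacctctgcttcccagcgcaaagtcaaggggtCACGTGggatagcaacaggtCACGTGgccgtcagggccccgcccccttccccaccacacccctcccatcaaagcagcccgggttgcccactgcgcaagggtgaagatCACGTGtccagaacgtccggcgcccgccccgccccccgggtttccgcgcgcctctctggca
Cdkn2c, window 1: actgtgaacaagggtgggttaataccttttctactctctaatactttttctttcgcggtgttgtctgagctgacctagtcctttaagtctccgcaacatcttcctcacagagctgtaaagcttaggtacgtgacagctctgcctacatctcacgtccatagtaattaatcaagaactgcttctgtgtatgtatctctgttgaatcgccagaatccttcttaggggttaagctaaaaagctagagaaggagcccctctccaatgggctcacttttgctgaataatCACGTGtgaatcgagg
Cdkn2c, window 2: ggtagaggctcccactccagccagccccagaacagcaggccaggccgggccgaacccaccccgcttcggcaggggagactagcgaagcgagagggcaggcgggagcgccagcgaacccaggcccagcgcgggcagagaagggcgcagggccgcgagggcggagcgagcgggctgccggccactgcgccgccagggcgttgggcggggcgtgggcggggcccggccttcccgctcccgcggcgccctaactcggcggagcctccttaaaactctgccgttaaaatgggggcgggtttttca
The Cdk4 window held CACGTG 4 times, 172, 118, 98 and 11 bases before the start. The first window of Cdkn2c held it once, 34 bases after the start, and the second held none. Windows were found for 7 of the 10 genes, 10 windows in all, and 3 of them (Cdk4, Cdk6 and Cdkn2c) held CACGTG, against 7.15% of 32851 windows of the same length over all genes. The motif reads the same on both strands. The E2F-type letters TTTCCCGC, TTTGGCGC, TTTCGCGC or TTTGCCGC, searched on both strands, were in none of the 10 windows and in 2.26% of all windows. A match of letters is a description of the window and says nothing of binding.

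The CIP/KIP inhibitors differed from each other in detection. Cdkn1b, which restrains resting lymphocytes, had levels of 5.43 and 5.49 in DP, 4.92 on both CD4SP arrays, 4.32 and 4.37 in CD8SP and 4.47 and 4.09 in OT-I cells, with 5.44 in TCRβ-negative cells. The order of populations was the same in both genotypes, with DP above CD4SP and CD4SP above CD8SP. The CD8SP difference from DP was -1.12 (SE 0.27, adjusted p = 0.0907). It was called with the normexp background (-1.23, adjusted p = 0.0177) and with the intensity trend (adjusted p = 0.0405) among the alternatives. The r of Cdkn1b with Ccnd1 and Ccnd2 over the 9 arrays was -0.87 and -0.82.

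Cdkn1a, a target of p53 that also responds to other signals, was well above background on 4 arrays, at -2.53 in DP control, -2.81 in DP CKO, -1.05 in CD8SP control and -0.56 in CD8SP CKO cells. The 10 spots of its probe had an SD of up to 0.80 between them. Its other probe was not well above background on any array. Its CD8SP difference from DP was 1.87 (SE 0.36, adjusted p = 0.0561), and over the alternatives it ran from 0.76 with the normexp background (adjusted p = 0.0774) to 1.92. It was 1.20 with the mean of its probes (adjusted p = 0.0983), and among the alternatives it was called in 1, without the OT-I pair (adjusted p = 0.0472, against up to 0.316 with slide as a block). In OT-I cells the probe read -3.89 and -3.20 and was not well above background. The fitted difference of OT-I from polyclonal CD8SP cells was -2.74 (SE 0.36, adjusted p = 0.0861). With each OT-I reading raised to the lowest signal well above background on its array, Cdkn1a was 4.26-fold lower, which is not a lower bound. The fitted difference changed with the settings. It was -1.41 with the mean of its probes (adjusted p = 0.26), which takes in the probe that was not well above background on any array. With the normexp background it was -0.77 (adjusted p = 0.385). Its size thus differed with the averaging of probes and with the normexp setting, which includes an offset of 50. OT-I and age cannot be told apart in that contrast. None of the 10 genes was called in it, with 2 at an unadjusted p below 0.05 and 0.237% of all genes called. Of 21 other p53 targets 16 were tested in CD8SP cells against DP, and 1 was called, Trp53inp1, which was lower (-1.91). Their median difference was -0.35, beside 0.03 over all genes tested. The r of Cdkn1a with the myeloid and dendritic sum was 0.74.

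Rb1, the substrate of the kinases, was measured by 10 spots with an SD of at most 0.08 between them. Its level was 2.99 and 2.93 in DP, 2.42 and 2.52 in CD4SP, 2.17 and 1.99 in CD8SP and 2.86 and 1.62 in OT-I cells, with 3.24 in TCRβ-negative CKO cells. The OT-I CKO array was the lowest and the TCRβ-negative array the highest. Rb1 differed between CD8SP and DP cells by -0.88 (SE 0.39, adjusted p = 0.276).

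TCRβ-negative CD4SP cells of the CKO had levels near those of DP CKO cells for most of the genes. Of those well above background on both arrays, Ccnd2 was 1.52 lower, and Ccnd3, Cdk4, Cdkn1b, Cdkn2c, Cdkn2d and Rb1 differed by -0.02, 0.40, -0.05, 0.33, -0.04 and 0.31. Against ordinary CD4SP CKO cells, Ccnd2 was 6.30 lower and Cdkn2c 2.76 higher. In the fit against DP, limma called 0 of 20282 genes (0%, with 333 at an unadjusted p below 0.05), and 3 of the 10 genes, Ccnd2, Cdk6 and Cdkn1a, had such a p. That fit lends the array the genotype effect of the other populations, since it has no control.

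**Figure D2:**
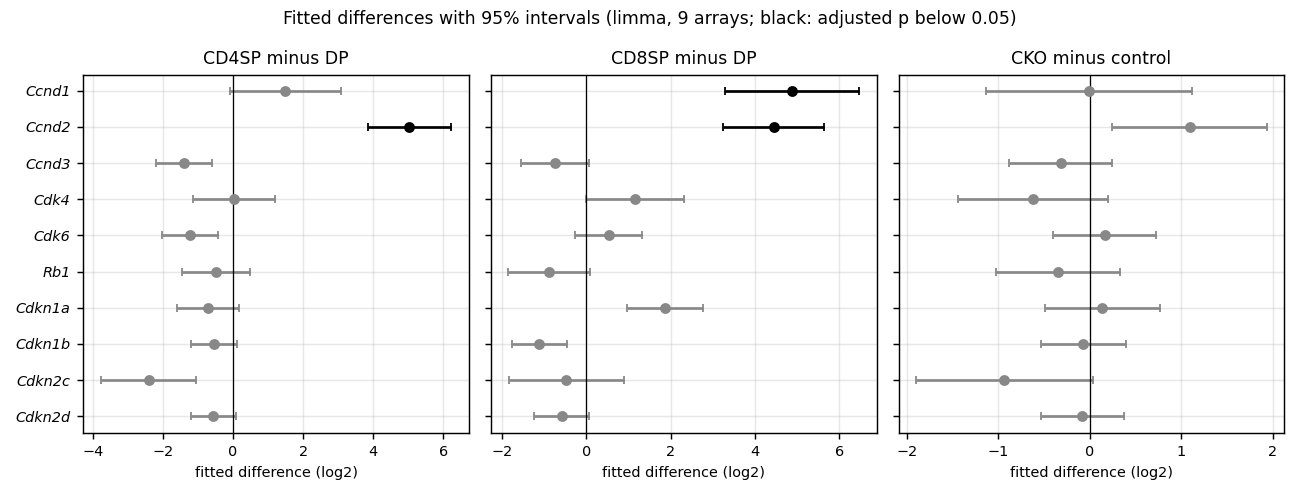
Fitted differences of the 10 genes (log2) for CD4SP minus DP, CD8SP minus DP and CKO minus control, with 95% intervals from limma over 9 arrays. Differences with an adjusted p below 0.05 are black: Ccnd2 at 5.03 in CD4SP, and Ccnd1 at 4.87 and Ccnd2 at 4.44 in CD8SP cells. The x axes differ in scale.

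Between genotypes, the CD8SP and OT-I pairs held most of the larger differences, and these pairs also had the larger shares over all genes. Of the 10 genes, 9, 8, 10 and 8 were well above background on either array of the DP, CD4SP, CD8SP and OT-I pairs. In the DP pair no gene of the 10 differed by more than 2-fold, against 9.28% of all genes detected on either array (3.94% higher, 5.34% lower). In the CD4SP pair 1 did, Ccnd1, which was 1.80 lower in the CKO (5.32% of genes lower, 3.49% higher, 8.8% either way). In the CD8SP pair Cdkn2c was 1.16 lower and Cdk4 1.06 lower, and none was higher by that much (9.28% of genes lower, 6.77% higher, 16% either way). In the OT-I pair Cdkn2c was 2.24 lower, Cdk4 1.51 lower and Rb1 1.24 lower, and Ccnd2 was 2.31 higher (13.9% of genes lower, 8.53% higher, 22.4% either way). Ccnd3 was 0.94 lower there.

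These sizes moved with the scaling. With the 75th percentile taken over detected probes alone, Cdk4 in the CD8SP pair (-0.92) and Rb1 in the OT-I pair (-0.97) were under 2-fold. With quantile normalization Cdk4 was at -0.66 in the CD8SP pair and just under 2-fold in the OT-I pair. With the normexp background, Cdk4 (-0.95) and Cdkn2c (-0.93) in the CD8SP pair and Ccnd1 in the CD4SP pair (-0.74) were under 2-fold. In the CD4SP pair, the myeloid genes Tyrobp (-2.35), Mpeg1 (-2.23) and Fcer1g (-1.13) were lower by more than 2-fold as well, 3 of 11 of the list, with none higher by that much. The NK and NKT markers differed by more there: all 4 that were measured were lower in the CKO by more than 2-fold, with a median of -4.47, and the NK receptor genes Klra8, Klrd1 and Klrb1c were well above background in the control and not in the CKO. Their part in the Ccnd1 difference was not tested.

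**Figure D3:**
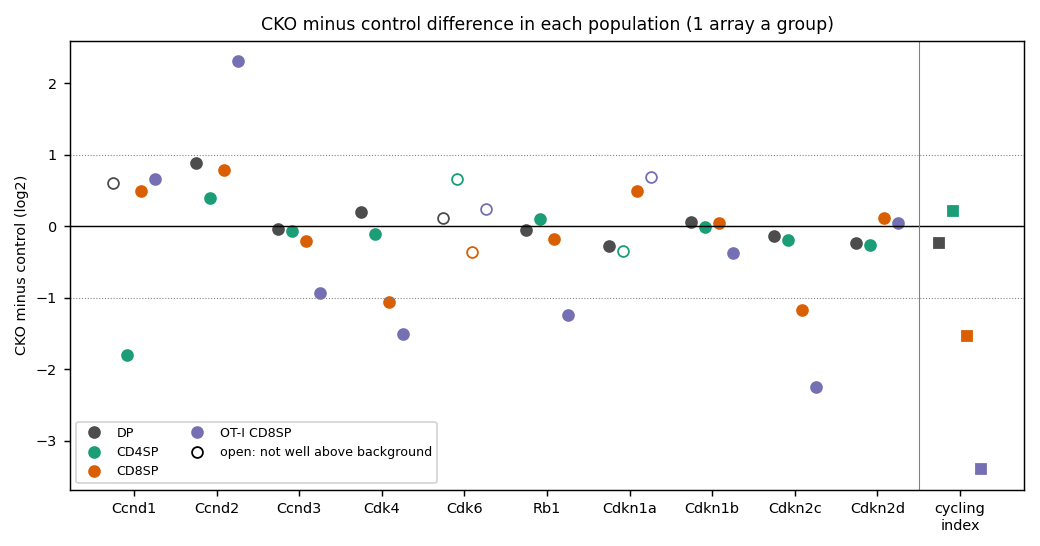
CKO minus control difference (log2) of each gene and of the cycling index in the 4 populations measured in both genotypes, 1 array per group. Open points involve an array not well above background, and dotted lines mark 2-fold. Cdkn2c differs by -0.14 and -0.19 in the DP and CD4SP pairs and by -1.16 and -2.24 in the CD8SP and OT-I pairs, and the index by -1.54 and -3.40 in the latter.

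Averaged over the 4 populations, limma called none of the 10 genes for genotype (1 at an unadjusted p below 0.05), where 57 of 20282 genes, or 0.281%, were called (8 higher and 49 lower, against 1 and 31 with the percentile over detected probes). Ccnd2 had the largest difference, at 1.09 (SE 0.34, 95% interval 0.25 to 1.94, adjusted p = 0.359), and its level was higher in the CKO in all 4 pairs, by 0.88, 0.39, 0.79 and 2.31. Cdkn2c was lower in all 4 pairs (-0.93, SE 0.39, adjusted p = 0.471). Cdk4 followed at -0.62 (SE 0.33, adjusted p = 0.538), Rb1 at -0.35 and Ccnd3 at -0.31. The 95% intervals were -0.53 to 0.39 for Cdkn1b and -0.54 to 0.38 for Cdkn2d. Without the OT-I pair the differences were 0.69 for Ccnd2, -0.50 for Cdkn2c, -0.32 for Cdk4, -0.11 for Ccnd3 and -0.05 for Rb1. None of the 10 genes was called for genotype in any of the 14 alternative fits. For genotype, slide as a block and leaving out the CD8SP pair are the same fit.

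A fit with separate genotype terms for the CD8SP populations and for DP with CD4SP cells, chosen after the data were seen, tested whether the effects differ. For Cdkn2c the genotype difference was -1.70 in the CD8SP populations and -0.17 in DP and CD4SP cells, a difference of -1.54 (SE 0.47, adjusted p = 0.315). For Cdk4 the values were -1.28 and 0.05, a difference of -1.33 (SE 0.36, adjusted p = 0.315). No gene of 20282 was called in this comparison with limma (3054, or 15.1%, at an unadjusted p below 0.05, 3 of the 10 genes among them). A difference of the effect between populations was not shown for these genes.

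The cycling state of an array was summarised by the median level of 20 DNA replication and 20 mitosis genes, none of them among the 10. This index was 4.64 and 4.40 in DP, 2.22 and 2.43 in CD4SP, 5.51 and 3.98 in CD8SP and 5.56 and 2.17 in OT-I cells (control first), with 5.13 in TCRβ-negative cells. The control CD8SP and OT-I arrays were the highest, and the OT-I CKO array and both CD4SP arrays the lowest. In the CKO the index was 1.54 lower in the CD8SP pair and 3.40 lower in the OT-I pair, and it differed by -0.24 and 0.21 in the DP and CD4SP pairs. All 20 replication genes were lower by more than 2-fold in the OT-I pair and 16 of 20 in the CD8SP pair, where 13.9% and 9.28% of all genes were.

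Cdkn2c followed the index most closely of the 10 genes. Its r was 0.96 over the 9 arrays (Spearman 0.88), 0.94 without the OT-I CKO and CD4SP control arrays, which lie farthest from the median index, and 0.97 without the OT-I pair. Among 15027 genes detected on all arrays, 1.84% had a larger r in size, the median r was 0.08, and 12.4% were above 0.8. Ccnd3 had an r of 0.82, Cdk4 0.67 and Rb1 0.53, and Ccnd2 had -0.60. Without the same 2 arrays the values were 0.74 for Ccnd3, 0.68 for Cdk4, 0.25 for Rb1 and -0.41 for Ccnd2, so those of Rb1 and Ccnd2 rested on them in part. Cdkn1b (0.18), Cdkn2d (0.27) and Ccnd1 (-0.04) had low values. The points share populations, slides and possibly mice, so these are descriptions.

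Cdk4 did not follow the index in DP cells. The DP and TCRβ-negative arrays, with index values of 4.40 to 5.13, had Cdk4 at 5.87 to 6.46, no higher than the CD8SP CKO array (6.59) with its index of 3.98. Ccnd2 split by population more than by index. The CD8SP control array had an index of 5.51 with Ccnd2 at 4.50, and DP control had 4.64 with Ccnd2 at 0.0095.

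**Figure D4:**
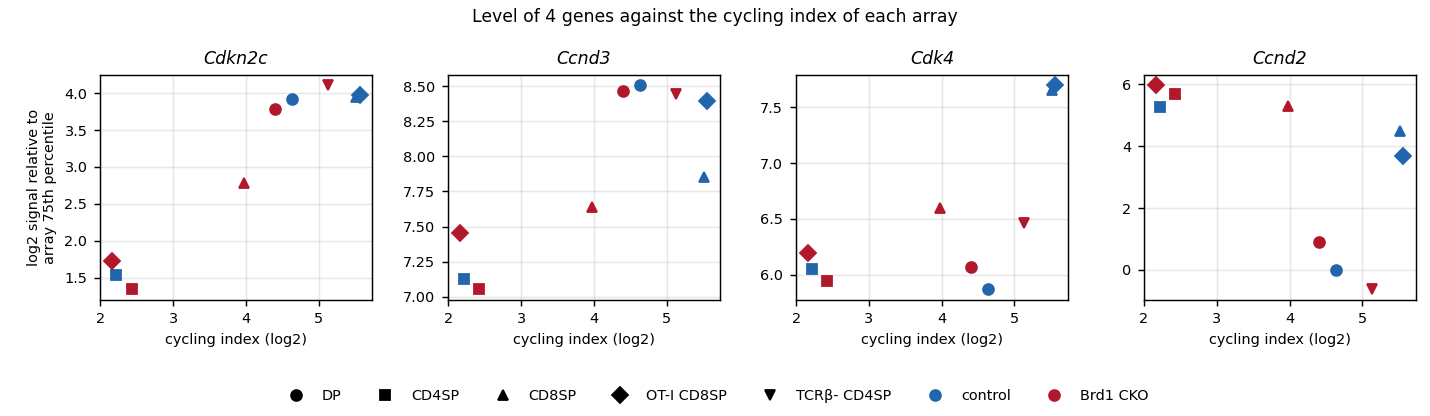
Level of Cdkn2c, Ccnd3, Cdk4 and Ccnd2 (log2) against the cycling index (median log2 level of 40 replication and mitosis genes), 1 point per array, shape for population and colour for genotype. Cdkn2c lies between 1.34 and 1.73 on the 3 arrays with an index of 2.17 to 2.43, and between 3.78 and 4.11 on the 5 arrays with an index of 4.40 to 5.56, with the CD8SP CKO array between them.

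With the index as a further term of the fit, the genotype difference became -0.18 for Cdkn2c, -0.05 for Cdk4, -0.01 for Ccnd3, 0.10 for Rb1 and 0.50 for Ccnd2. This fit has 2 residual degrees of freedom, and limma called 0 of 20282 genes in it for genotype (1601 at an unadjusted p below 0.05). The index itself differed between genotypes in the CD8SP and OT-I pairs (-1.54 and -3.40). Genotype and cycling state therefore cannot be told apart by this fit, and no conclusion is drawn from the smaller values. Markers of the DP stage differed as well. The 10 markers listed include Cd4, Cd8a and Cd8b1, the co-receptor genes of the sorting gates. Part of the difference between populations is thus set by the sort. The median level of the 10 was 6.43 and 6.41 in DP, 0.82 and 1.71 in CD4SP, 4.48 and 4.10 in CD8SP and 4.06 and 2.05 in OT-I cells, with 5.44 in TCRβ-negative cells. In the OT-I pair 7 of 10 were more than 2-fold lower in the CKO, among them the recombinase gene Rag1 (-3.14) and the pre-T cell receptor chain Ptcra (-5.11). In the CD8SP pair 1 of 10 was, Ptcra (-2.25), and in the CD4SP pair 5 of 10 were higher and 2 lower. The part of cycling state and of stage within the gate in the Cdkn2c and Cdk4 differences was not tested.

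The rest of the G1 pathway was read from a list of 34 genes, of which 33 were measured and 31 tested. With limma, none was called for genotype (5 at an unadjusted p below 0.05), in CD4SP (7) or CD8SP cells (6) against DP, in OT-I against CD8SP cells (0) or in TCRβ-negative cells against DP (1). In the OT-I pair 12 of 31 were more than 2-fold lower in the CKO, against 13.9% of all genes, and 1 was higher. The median of the list was -0.74 there, beside -0.08 over all genes. In the CD8SP pair 11 of 32 were lower, against 9.28%, and none was higher, with a median of -0.42 beside -0.13. The list's median was -0.03 in the DP pair, with 3 of 31 higher and 1 lower, and -0.01 in the CD4SP pair, with 1 of 31 higher and 1 lower.

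Of the genes that act beside or after Cdk4, the lowest CKO minus control values in the OT-I pair were those of E2f8 (-3.89) and E2f2 (-3.81), both E2F family members. In the CD8SP pair both differed by -1.39, in the DP pair by -0.69 and -0.30, and in the CD4SP pair by 0.30 and -0.06. Fbxo4, an F-box protein, differed by 1.08 in the OT-I, 0.40 in the CD8SP, -0.28 in the CD4SP and 1.03 in the DP pair. Fbxo4 also had the largest difference above 0 in CD4SP cells against DP (1.36, adjusted p = 0.162), followed by Myc (1.33, adjusted p = 0.286). In CD8SP cells Myc was 2.30 above DP (adjusted p = 0.0897) and Fbxo4 1.23 (adjusted p = 0.157), and the lowest were Cdkn1c (-1.31, adjusted p = 0.0772) and E2f2 (-1.17, adjusted p = 0.522).

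Of the inhibitors outside the 10 genes, Cdkn1c, the third CIP/KIP gene, differed in the same direction in all 4 pairs. Its level was 0.84 in control and -0.61 in CKO DP cells, -0.44 and -1.58 in CD4SP, -0.25 and -2.13 in CD8SP and -0.36 and -1.71 in OT-I cells. Each CKO array was lower than its control, by 1.14 to 1.87. The fitted difference was -1.45 (SE 0.21, adjusted p = 0.0885) and did not pass the test. Cdkn2a, a gene of the INK4 locus, was well above background on 5 arrays, at -2.42, -2.68 and -1.96 in DP, CD4SP and CD8SP CKO cells, -2.58 in OT-I control and -1.31 in TCRβ-negative cells. On the DP, CD4SP and CD8SP control and OT-I CKO arrays it was not, so no size of its difference is given.

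For each of the 10 genes, the 3 named genes with the highest r over the 9 arrays were taken from 3171 that were well above background on all arrays and had an SD of at least 0.5. For Ccnd2 they were S1pr1, the egress receptor (0.99), the cytokine receptor Il2rb (0.99) and Gimap3 (0.99). For Ccnd1 they were Wdfy1 (0.99), Mpeg1 of the myeloid list (0.99) and Alox5ap (0.98), and for Ccnd3 Spef1 (0.98), Ak3 (0.98) and the chromatin remodeller Smarca4 (0.97). Cdk4 was followed by Slirp, an RNA-binding protein of mitochondria (0.99), Prmt7 (0.99) and Uqcc2 (0.99). Cdkn2c was followed by the histone variant H2az2 (0.99), Kbtbd6 (0.99) and Arhgef39 (0.99). Cdkn1b was closest to Plxnd1, a semaphorin receptor (0.98), Mtss1 (0.97) and Crispld2 (0.97). For Rb1 the values were lower, at 0.94 for Bmp2k, 0.93 for Zfp3 and 0.92 for Fgfrl1, as they were for Cdkn2d with the ubiquitin ligase Cbl (0.94), Wdr81 (0.92) and Mogat1 (0.91). Cdk6 (Nxt2, Kif20b and Fkbp5, 0.87 to 0.91) and Cdkn1a (Cxcl16, Tifa and Nccrp1, 0.83 to 0.89) had the lowest, on readings mostly not well above background.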

How the data were processed

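Agilent arrays with 1 dye (Cy3) measured RNA of sorted thymocytes, 9 arrays for 9 groups. The scanner files hold, per the file headers, each spot's processed signal as an intensity from Agilent Feature Extraction 10.7.1.1, background-subtracted and not scaled between arrays. The deposited series table holds an intensity on the linear scale, with each array's 75th percentile of the processed signal set to 1. The labels' protocols name biotinylated cRNA, whereas the scanner files are of a Cy3 experiment, and they are followed here.

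Spots of a probe were averaged, 144 probes marked as outliers were left out, and log2 signals were taken relative to the array's 75th percentile. A gene was represented by its probe with the highest mean. Genes well above background on at least 2 arrays (20282) entered a fit by limma 3.58.1 (R 4.3.3), with population and genotype as additive terms and 3 residual degrees of freedom. Its p-values are two-sided, adjusted over all genes by Benjamini-Hochberg, and a gene was called below 0.05. The spread of the genotype difference between populations is the error, so these p-values do not measure the spread between mice. A run of the fit on simulated data used independent noise without population or slide differences. It therefore does not bear on the p-values given here. Differences within a pair of arrays have no test, and the number of arrays limits their precision. Gene names come from RefSeq tables of GRCm38.p6. The members, the gene lists and the rules were chosen with earlier results of these data known. Named were the 10 genes, the label checks, listed genes that were called or had the largest differences, and the 3 genes most like each member. Alternatives covered scaling, background (normexp with an offset of 50), the deposited table, probes, filters, slide, the variance prior, each pair left out, and the cycling index as a term.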

Additional observations from a re-analysis of the deposited data

How the results depend on the processing

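The genotype count of 57 became 32 with the 75th percentile of detected probes, 29 with quantile normalization, 96 without a filter, 20 over genes detected on all arrays, and 24 without the OT-I pair. It was 0 with slide as a block (1197 at an unadjusted p below 0.05), without the DP (3626), CD4SP (1933) or CD8SP pair (1197) and with the index as a term (1601). These fits, and that without the OT-I pair, leave 2 residual degrees of freedom. The CD4SP count against DP (626) became 960 with normexp, 1176 without the OT-I pair, and 285 both with slide as a block and without the CD8SP pair. The CD8SP count against DP (702) became 1552 with normexp, 1356 with an intensity trend and 0 with slide as a block (2704 at an unadjusted p below 0.05). The OT-I count against CD8SP (48) became 29 with detected probes, 7 over genes detected on all arrays, 17 with slide as a block, 27 without the DP pair and 20 without the CD4SP pair. The TCRβ-negative count (0) became 18 without a filter and 1 over genes detected on all arrays. The fits without a pair have fewer arrays. The slide term is set by the CD8SP pair alone, the pair that crossed slides. For genotype and for CD4SP against DP, slide as a block is thus the same fit as leaving out that pair. The cause of the other changes was not tested.

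With detected probes the median of all genes in CD8SP cells against DP was -0.12 in place of 0.03. Among the 10 genes, only values that were not called changed sign. For genotype, Ccnd1 was 0.035 with detected probes, 0.065 with normexp, 0.0085 with quantile normalization and 0.59 without the CD4SP pair. Cdk6 was -0.041 with normexp and -0.00018 without the CD4SP pair. Cdkn1a was -0.018 with normexp, -0.038 with the mean of probes, -0.046 without the OT-I pair and -0.25 with the index. Cdkn1b was 0.035 without the OT-I pair and 0.067 with the index. Cdkn2d was 0.0015 with normexp and 0.062 with quantile normalization, and Rb1 was 0.10 with the index. In OT-I against CD8SP cells with slide as a block, Ccnd2 was 0.13 and Cdk4 0.12. In TCRβ-negative cells against DP, with detected probes and with quantile normalization, Ccnd3 was -0.035 and -0.10 and Cdkn1b -0.14 and -0.15, and Cdkn1b was -0.037 without the OT-I pair. Cdk4 in CD4SP cells against DP was -0.068 with normexp and -0.045 with the mean of probes.

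No paired analysis was possible because each group is 1 array and the labels give neither replicate numbers nor mice, beyond the pairing of genotypes within a population that the fit already holds. Signals near background limit Ccnd1, Cdk6 and Cdkn1a.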
